A study of Arabidopsis thaliana with 24 samples.

Results

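The comparison described here sets mock-treated abi1td seedlings against mock-treated WT Col-0 seedlings. It thus shows how miRNA levels of the mutant differed without added ABA. Its members were taken from the labels as the 3 abi1td-Mock and the 3 WT-Mock libraries, 6 of the 24 samples of the series. The series holds 8 groups, since 4 genotypes (WT Col-0, abi1td, mkkk17 and mkkk18) were each given mock or ABA, with 3 biological replicates in each group. All seedlings were 2 weeks old, of the Columbia ecotype, and grown on sucrose medium, and the ABA groups received 100 µM ABA for 4 h, while mock was the equivalent treatment without ABA (the hormone was dissolved in methanol). The abi1td, mkkk17 and mkkk18 lines each carry a T-DNA insertion (abi1td in ABI1, which encodes a phosphatase, and the mkkk lines in the kinase genes MAPKKK17 and MAPKKK18), and each is a single line, so an effect of the insertion and one of the line's own background cannot be told apart. The tables list mature miRNAs only, so the ABI1 transcript itself was not measured here.

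ABI1 is a protein phosphatase of the PP2C family that keeps the SnRK2 kinases inactive until ABA binds its receptors and the receptors then bind the phosphatase, so a plant without ABI1 has lost one of several redundant brakes on ABA signalling. Plant miRNAs are short RNAs cut by DCL1 from a hairpin precursor, mostly loaded into AGO1, and they direct cleavage of nearly complementary mRNAs. The arm of the hairpin that is loaded accumulates, and the opposite arm is usually rarer. Many plant miRNAs respond to nutrients or stress, among them copper (miR398, miR397, miR408), phosphate (miR399, miR827, miR2111) and sulfate (miR395).

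The differences turned on 10 mature sequences, which are shown because they are all the miRNAs that passed the test described below. They are written 5′ to 3′ with the letters of the deposited tables, and capitals mark the seed, bases 2 to 8. The first 6 were higher in abi1td and the last 4 lower.
miR2111b-3p: aTCCTCGGgatacagtttacc
miR472-3p: tTTTTCCTactccgcccatacc
miR173-5p: tTCGCTTGcagagagaaatcac
miR5654-5p: aTAAATCCcaacatcttcca
miR472-5p: aTGGTCGAagtaggcaaaatc
miR158b: cCCCAAATgtagacaaagca
miR398b-3p: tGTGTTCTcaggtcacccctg
miR779.2: tGATTGGAaatttcgttgact
miR827: tTAGATGAccatcaacaaact
miR395b: cTGAAGTGtttggggggactc

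No 2 of the 10 share a seed. A further 3 sequences are shown because each has the seed of one of the 10 and differs from it at a single base, so that reads of the pair are told apart by that base alone.
miR158a-3p: tCCCAAATgtagacaaagca
miR398a-3p: tGTGTTCTcaggtcacccctt
miR395a: cTGAAGTGtttgggggaactc
Positions are counted from 1 at the 5′ end. From miR158a-3p to miR158b the change is T1C, from miR398b-3p to miR398a-3p it is G21T, and from miR395b to miR395a it is G17A. These 3 pairs lay at very different levels, and the mapping of reads within a pair was not tested.

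Exact matches to the TAIR10.1 genome placed 8 of the 10 at a single position. miR2111b-3p lies at chr5:400464-400484 on the plus strand in MIR2111b, miR173-5p at chr3:8236161-8236182 on the plus strand in MIR173, and miR827 at chr3:22122811-22122831 on the minus strand in MIR827. miR158b lies at chr1:20772273-20772292 on the plus strand in MIR158b, and miR779.2 at chr2:9560866-9560886 on the plus strand in MIR779. The miR472 arms lie at chr1:4182143-4182164 (3p) and chr1:4182266-4182286 (5p) on the minus strand, in MIR472 and within an exon annotated as 5′ UTR of the protein-coding gene AT1G12290. miR5654-5p lies at chr1:11786294-11786313 on the plus strand, in MIR5654 and within an exon annotated as 5′ UTR of AT1G32583. The remaining entries each come from several loci, which the data cannot separate. miR398b-3p matches MIR398b (chr5:4691107-4691127) and MIR398c (chr5:4694778-4694798), and miR395b matches MIR395b (chr1:9364540-9364560), MIR395c (chr1:9367149-9367169) and MIR395f (chr1:26273939-26273959), all on the plus strand.

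Each table gave RPM (reads normalised to a fixed library total) for the same 350 mature sequences. Their sum was 43059, 58405 and 69409 RPM in WT-Mock replicates 1, 2 and 3, and it was 60661, 36691 and 35505 RPM in abi1td-Mock. The means were 56958 ± 13234 and 44286 ± 14194 RPM (SD, n = 3 each), the groups overlapped, and the difference of -12672 RPM gave p = 0.3 in a two-sided exact permutation test, whose smallest p for 3 against 3 is 0.1. In WT-Mock 206 ± 5.69 sequences were above 0, and in abi1td-Mock 205 ± 7.21 (SD, n = 3 each; p = 0.8, exact permutation test). The tables hold no read counts. If each value stands for whole reads, the totals were at least 9100000 to 9760000 in these 6 libraries, so that 3 reads would be at most 0.33 RPM. Of the 350 sequences 104 were listed at 0 in all 6 libraries, and 131 had a mean of at least 1 RPM and were tested.

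Libraries were put on one scale by the median of ratios, with the log2 factors -0.24, 0.33 and 0.32 in WT-Mock and 0.31, -0.47 and -0.25 in abi1td-Mock. The mean of the factors was 0.27 lower in abi1td-Mock on the log2 scale. Without this step the median difference over the 131 miRNAs was -0.28, and with it -0.02. Library-to-library distances over the 131 miRNAs averaged 5.39 within WT-Mock, 4.61 within abi1td-Mock and 6.33 between the groups, in log2 units, so the distance between the groups exceeded both of those within them.

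Mock abi1td seedlings had more miR2111b-3p, miR173-5p, miR472-3p, miR472-5p, miR5654-5p and miR158b than mock WT Col-0, and less miR398b-3p, miR827, miR395b and miR779.2. These 10 of 131 miRNAs (7.63%) passed limma, a linear model with moderated variances, with a Benjamini-Hochberg adjusted p under 0.05, 6 higher (4.58%) and 4 lower (3.05%), and 30 (22.9%) had an unadjusted p under 0.05. The mean change lay between 0.55 and 1.21 on the log2 scale in either direction. On the rescaled values 36 miRNAs (27.5%) had groups that did not overlap, 18 higher and 18 lower in abi1td. On the RPM as deposited there were 16 such miRNAs (12.2%), of which 2 were higher and 14 lower. RNA came from whole seedlings, so fewer cells with a miRNA and less of it per cell cannot be told apart.

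**Figure D1:**
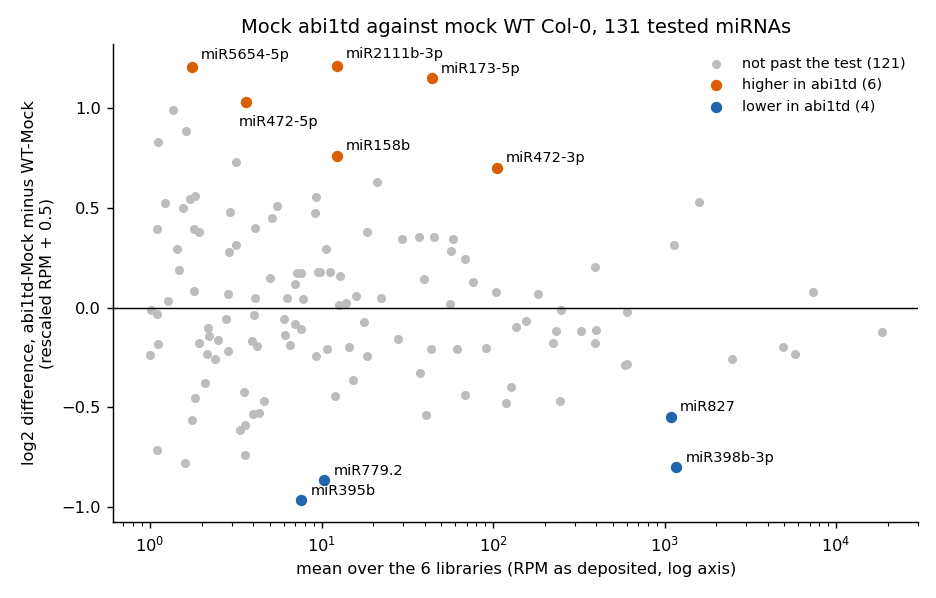
Log2 difference of abi1td-Mock from WT-Mock (y axis, rescaled RPM + 0.5) against the mean over the 6 libraries (x axis, RPM as deposited, log axis), with 1 point for each of the 131 tested miRNAs. Orange points mark the 6 that were higher and blue points the 4 that were lower by limma at an adjusted p under 0.05. Of the 4 lower ones, miR398b-3p and miR827 had means above 1000 RPM, while none of the 6 higher ones exceeded the 105 RPM of miR472-3p.

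miR2111b-3p, the arm opposite to the phosphate-responsive miR2111-5p, had the smallest adjusted p. Its rescaled level was 7.78, 9.48 and 5.21 RPM in WT-Mock and 15.7, 21.8 and 15.7 RPM in abi1td-Mock. The groups did not overlap on this scale or as deposited, where abi1td-Mock held 13.2 to 19.5 RPM and WT-Mock 6.5 to 11.9 RPM. The log2 difference was 1.21 (SE 0.23, 95% interval 0.74 to 1.69), with an adjusted p of 0.00387 in limma. It passed with each of the 6 libraries left out, with log2 differences from 0.98 to 1.39. Over its 19 alternatives the adjusted p ranged from 9.51e-05 to 0.340. Of all the called miRNAs it alone also passed in fits of the 12 mock libraries and of all 24 libraries.

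The other sequences of the family differed less. miR2111a-5p, which both MIR2111a and MIR2111b encode and which acts on an F-box mRNA, had rescaled levels of 9.43, 5.97 and 5.05 RPM in WT-Mock and 8.64, 7.32 and 6.67 RPM in abi1td-Mock. These groups overlapped (log2 difference 0.17, adjusted p 0.694), and the sign turned to -0.074 with RPM as deposited and to -0.0078 without WT-Mock replicate 3. The opposite arm of the sister gene, miR2111a-3p, differed by -0.05 (adjusted p 0.923). Summed over its 3 entries, the family was higher by 0.71 on the log2 scale (adjusted p 0.0267), but it did not pass without WT-Mock replicate 3 (0.48, adjusted p 0.250) or without abi1td-Mock replicate 2 (0.59, adjusted p 0.112).

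Both arms of miR472, which guides cleavage of mRNAs of NLR immune receptors, rose in abi1td. The loaded arm, miR472-3p, had 71.2, 97.0 and 72.4 RPM in WT-Mock and 119, 135 and 135 RPM in abi1td-Mock after rescaling. The abi1td-Mock libraries lay close together and all above WT-Mock on this scale, whereas the groups overlapped as deposited. The log2 difference was 0.70 (SE 0.16, 95% interval 0.37 to 1.03, adjusted p 0.00956), and it passed with each library left out. Over its 19 alternatives the adjusted p ranged from 0.000771 to 0.663. miR472-5p was far rarer, at 1.41, 2.95 and 2.48 RPM in WT-Mock and 3.95, 5.66 and 5.60 RPM in abi1td-Mock. Its groups did not overlap on either scale, and its log2 difference of 1.03 (SE 0.28, 95% interval 0.45 to 1.61) had an adjusted p of 0.0223. That call was lost without WT-Mock replicate 1, abi1td-Mock replicate 2 or abi1td-Mock replicate 3 (adjusted p 0.0838, 0.0527 and 0.0725, against a range of 0.00938 to 0.386 over its 18 alternatives). Added up, the miR472 family was 0.72 higher (adjusted p 0.00574) and passed with each library left out. miR825, the third tested member of the NLR list, was at 3.54, 3.35 and 4.97 RPM in WT-Mock and 2.18, 3.18 and 1.91 RPM in abi1td-Mock, with an adjusted p of 0.194.

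miR173-5p, a 22-nt miRNA that starts the production of trans-acting siRNAs from the TAS1 and TAS2 transcripts, was higher in abi1td by 1.15 on the log2 scale (SE 0.27, 95% interval 0.58 to 1.72, adjusted p 0.0132). In WT-Mock it stood at 17.8, 49.3 and 19.2 RPM and in abi1td-Mock at 48.6, 49.7 and 79.3 RPM. WT-Mock replicate 2 reached the level of the mutant, so the groups overlapped. The adjusted p was 1.42e-06 without that library, with a log2 difference of 1.61, and 0.0860 without abi1td-Mock replicate 3, and it ranged up to 0.539 over 19 alternatives. miR390a-5p, which starts TAS3 siRNAs through AGO7, differed by 0.07 (adjusted p 0.787), and that sign turned with RPM as deposited (-0.20).

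miR5654-5p and miR158b complete the higher group. miR5654-5p was at 0.47, 1.67 and 0.64 RPM in WT-Mock and 2.42, 2.76 and 2.62 RPM in abi1td-Mock, with a log2 difference of 1.21 (SE 0.32, 95% interval 0.54 to 1.88, adjusted p 0.0223). As deposited, WT-Mock held 0.4, 2.1 and 0.8 RPM of it, and the 0.4 RPM of replicate 1 lies near what 3 reads may be worth. It passed only without WT-Mock replicate 2 and without abi1td-Mock replicate 2, and the other 4 omissions gave an adjusted p between 0.0560 and 0.0688 (range over 18 alternatives 0.00273 to 0.340).

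miR158b was at 10.14, 8.92 and 7.37 RPM in WT-Mock and 18.2, 17.4 and 10.96 RPM in abi1td-Mock. The groups did not overlap after rescaling, although abi1td-Mock replicate 3 came near WT-Mock, and the log2 difference was 0.76 (SE 0.22, 95% interval 0.30 to 1.23, adjusted p 0.0386). It was lost without WT-Mock replicate 3, abi1td-Mock replicate 1 or abi1td-Mock replicate 2 (adjusted p 0.0727, 0.182 and 0.104, with a range of 0.0157 to 0.663 over 19 alternatives). The near-identical miR158a-3p, far more abundant, was at 5976, 6791 and 7867 RPM in WT-Mock and 8019, 8077 and 5815 RPM in abi1td-Mock. Its log2 difference was 0.08 (adjusted p 0.794) and turned to -0.19 with RPM as deposited, so the rare member moved and the abundant one gave no call.

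**Figure D2:**
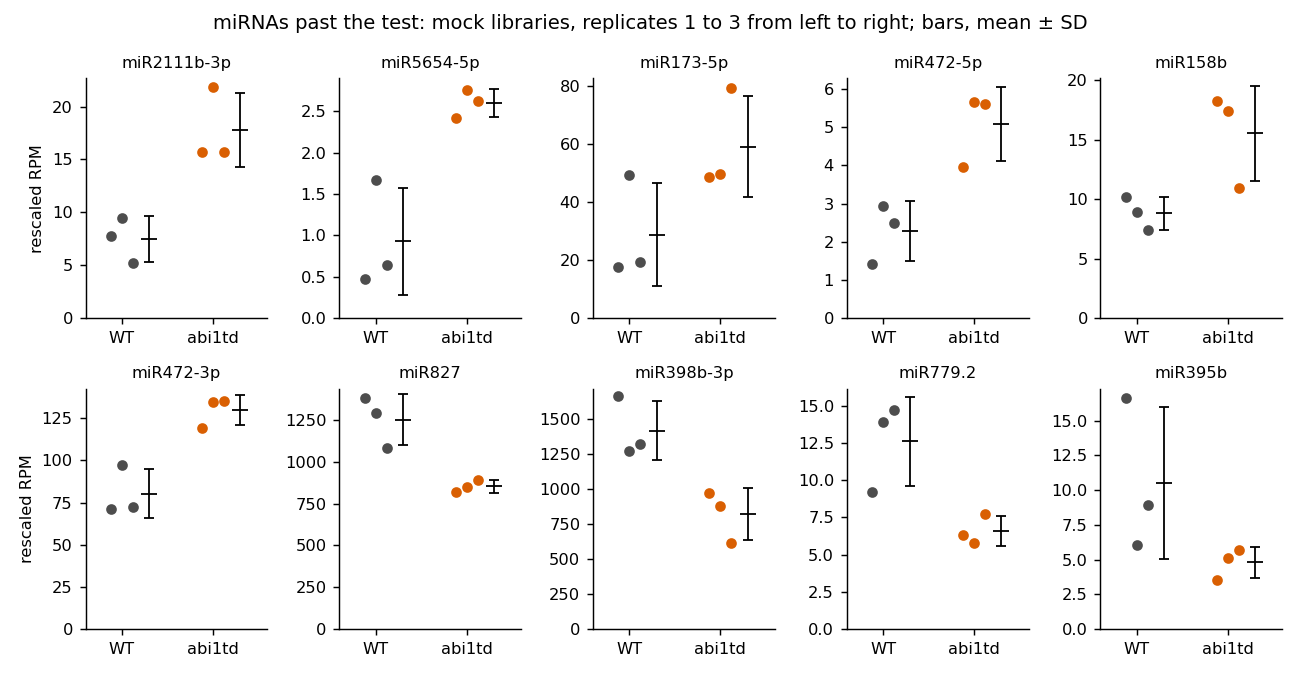
Rescaled RPM (y axes, from 0) of the 10 called miRNAs in the WT-Mock (grey) and abi1td-Mock (orange) libraries, with 1 point per library and the mean ± SD as black bars. WT and mutant points are separate in 9 of the 10 panels; in that of miR173-5p, WT-Mock replicate 2 lies at 49.3 RPM, between the lower abi1td-Mock points of 48.6 and 49.7 RPM.

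Among the lower miRNAs, miR398b-3p changed at the highest level. It guides cleavage of mRNAs of the copper/zinc superoxide dismutases CSD1 and CSD2 and of their copper chaperone, and accumulates when copper is short. It was at 1663, 1271 and 1322 RPM in WT-Mock and 974.5, 877 and 617 RPM in abi1td-Mock, and the groups did not overlap on this scale or as deposited (1411, 1595 and 1650 RPM against 1207, 635 and 518 RPM). The log2 difference was -0.80 (SE 0.17, 95% interval -1.16 to -0.44, adjusted p 0.00894), and it passed with each library left out, at -0.94 to -0.60. Over its 19 alternatives the adjusted p ranged from 0.000156 to 0.255. The miR398 family sum was lower by the same measure (-0.79, adjusted p 0.00574), since miR398b-3p makes up nearly all of it.

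The other copper miRNAs gave no call. miR397a, which acts on laccase mRNAs, was at 5.78, 4.38 and 3.29 RPM in WT-Mock and 2.50, 2.07 and 2.74 RPM in abi1td-Mock, without overlap (log2 difference -0.74, adjusted p 0.0984). The more abundant miR397b and miR408-3p differed by -0.07 (adjusted p 0.823) and -0.12 (adjusted p 0.675). Of the 9 copper miRNAs tested, both arms counted, 1 was called (7.63% over all miRNAs). Among them 4 differences were above 0 and 5 below, with a median of -0.07 against -0.02 over all 131. Those above 0 were miR857 (0.19) and the opposite arms miR398a-5p (0.83), miR398b-5p (0.47) and miR408-5p (0.12). Those below 0 were miR398b-3p, miR397a, miR398a-3p (-0.45), miR408-3p and miR397b.

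miR827 and miR395b also fell. miR827, which acts on NLA, a ubiquitin ligase that removes phosphate transporters, was at 1379, 1294 and 1082 RPM in WT-Mock and 819, 846.2 and 892 RPM in abi1td-Mock. The groups did not overlap on either scale. The log2 difference was -0.55 (SE 0.15, 95% interval -0.85 to -0.24, adjusted p 0.0223), the smallest among the 10. It was lost without WT-Mock replicate 1, abi1td-Mock replicate 1 or abi1td-Mock replicate 2 (adjusted p 0.146, 0.0892 and 0.0549, with a range of 0.00698 to 0.479 over 19 alternatives).

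miR395b, which acts on mRNAs of ATP sulfurylases and of a sulfate transporter, was at 16.6, 6.05 and 8.89 RPM in WT-Mock and 3.55, 5.11 and 5.72 RPM in abi1td-Mock. WT-Mock replicate 1 was the highest, and the lowest WT-Mock library lay just above the highest of abi1td-Mock. The log2 difference was -0.97 (SE 0.29, 95% interval -1.57 to -0.36, adjusted p 0.0405), and it was lost without WT-Mock replicate 1 (-0.59, adjusted p 0.193), abi1td-Mock replicate 1 (adjusted p 0.103) or abi1td-Mock replicate 3 (adjusted p 0.0675), with a range of 0.00251 to 0.264 over 19 alternatives. miR395a, too rare to be tested, was listed at 1.5, 1.2 and 1.8 RPM in WT-Mock and at 0.2, 0.3 and 0.4 RPM in abi1td-Mock, values chosen after they were seen and, in the mutant, near what 3 reads may be worth. The miR395 sum was lower by 1.06 on the log2 scale (log2 difference -1.06, adjusted p 0.0196), and it did not pass without WT-Mock replicate 1 (-0.70, adjusted p 0.138) or replicate 3 (adjusted p 0.156).

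The calls in the phosphate and sulfate families thus went in both directions, with the rise called only for an opposite arm, miR2111b-3p. Of 10 tested, miR2111b-3p was called higher and miR827 and miR395b lower, beside 4.58% called higher and 3.05% called lower over all miRNAs, and their median was -0.15. miR399b, which acts on the ubiquitin-conjugating enzyme PHO2, was at 314, 217 and 292 RPM in WT-Mock and 219, 242 and 142 RPM in abi1td-Mock, with overlap (log2 difference -0.47, adjusted p 0.119).

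miR779.2, from a young hairpin of Arabidopsis, was at 9.20, 13.9 and 14.7 RPM in WT-Mock and 6.30, 5.80 and 7.75 RPM in abi1td-Mock. The groups were apart after rescaling and met at 7.8 RPM as deposited. The log2 difference was -0.87 (SE 0.23, 95% interval -1.34 to -0.39, adjusted p 0.0223), and it was lost without WT-Mock replicate 3 (adjusted p 0.0588) or abi1td-Mock replicate 1 (adjusted p 0.0593), with a range of 0.00239 to 0.624 over 19 alternatives.

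The number of calls depended on single libraries and on the way the spread was estimated. It was 6 without WT-Mock replicate 1, 18 without WT-Mock replicate 2, 5 without abi1td-Mock replicate 1 and 6 without abi1td-Mock replicate 3. No miRNA was called with RPM as deposited (14 had an unadjusted p under 0.05) or without a trend in the variance (28 unadjusted), and 1 was called with 12 or 24 libraries in the fit. None of the 10 changed direction in any alternative, and miR2111b-3p, miR472-3p and miR398b-3p were called with every single library left out.

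Added up by family number, 8 of 68 families (11.8%) passed, 4 higher (5.88%) and 4 lower (5.88%), and 17 (25%) had an unadjusted p under 0.05. They were the families of the called miRNAs other than miR158, whose sum is set by miR158a-3p. miR173 was higher by 1.13 (adjusted p 0.0151) and miR5654 by 1.15 (adjusted p 0.0229), miR827 and miR779 have the values of their single measured sequences, and the remaining 4 sums were given above. Without WT-Mock replicate 1 the count was 4, with miR173, miR827, miR395 and miR5654 lost (adjusted p 0.0917 to 0.138). Without WT-Mock replicate 3 it was 3, with only miR398, miR472 and miR827 left of the 8, and with the other libraries left out it was 8 or 11.

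The ratio of the 5p to the 3p arm of a hairpin within a library needs no scaling between libraries. However, the 0.5 RPM added to each arm weighs on ratios of rare arms, and 1 ratio passed with 0.1 RPM in its place. An arm sequence shared by several genes enters the ratio of each with its pooled value, so these ratios are not all separate. The miR2111b ratio, for example, uses miR2111a-5p, which MIR2111a and MIR2111b share. Of 43 hairpins with both arms tested, 6 (14%) passed limma, 3 with a higher (6.98%) and 3 with a lower (6.98%) ratio in abi1td, and 8 (18.6%) had an unadjusted p under 0.05. The miR398a hairpin and the entry miR398b, both arms of which come from MIR398b and MIR398c alike, were among them. For miR398b the log2 ratio was -7.56, -7.13 and -7.74 in WT-Mock and -6.49, -6.46 and -5.60 in abi1td-Mock, so that the 3p arm dominated everywhere, and less so in every mutant library. The difference was 1.29 (SE 0.32, 95% interval 0.60 to 1.98, adjusted p 0.0246), and it was lost without WT-Mock replicate 3 (adjusted p 0.0750) or abi1td-Mock replicate 3 (adjusted p 0.0742), with a range of 0.00467 to 0.162 over 17 alternatives. Of the 2 arms only the 3p arm was called. After rescaling, miR398b-5p was at 8.25, 8.68 and 5.77 RPM in WT-Mock and 10.4, 9.26 and 12.2 RPM in abi1td-Mock (log2 difference 0.47, adjusted p 0.210). As deposited its groups overlapped, at 7, 10.9 and 7.2 RPM in WT-Mock and 12.9, 6.7 and 10.2 RPM in abi1td-Mock.

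For miR398a the log2 ratio was -1.05, -1.72 and -0.84 in WT-Mock and 0.25, 0.11 and 0.00 in abi1td-Mock, without overlap. The difference was 1.32 (SE 0.28, 95% interval 0.73 to 1.92, adjusted p 0.0121). Of the 15 alternatives in which it could be tested only the fit of all 24 libraries lost it (adjusted p 0.162). Without abi1td-Mock replicate 1, and with a minimum mean of 5 RPM, this ratio was not tested, since its arms fell under the minimum. Both arms of miR398a were rare, at 0.5 to 2.8 RPM in the 6 libraries as deposited, so counting error in this ratio is large.

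For the 4 other hairpins the called ratio was lost in most alternatives. miR2111b fell by 1.03 (log2 difference -1.03, adjusted p 0.0376), from 0.26, -0.63 and -0.04 in WT-Mock to -0.84, -1.49 and -1.17 in abi1td-Mock, which restates the rise of its 3p arm. miR167c, of the family that acts on the auxin response factors ARF6 and ARF8, fell by the same amount (-1.03, adjusted p 0.0376). miR822 differed by -0.97 (adjusted p 0.0486) and miR840 by 0.86 (adjusted p 0.0494). Of the 6 fits without 1 library, miR2111b, miR167c and miR822 each passed in 2 and miR840 in 1, and the count of called ratios was 3, 11 and 1 without WT-Mock replicates 1, 2 and 3 and 2, 3 and 1 without abi1td-Mock replicates 1, 2 and 3.

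**Figure D3:**
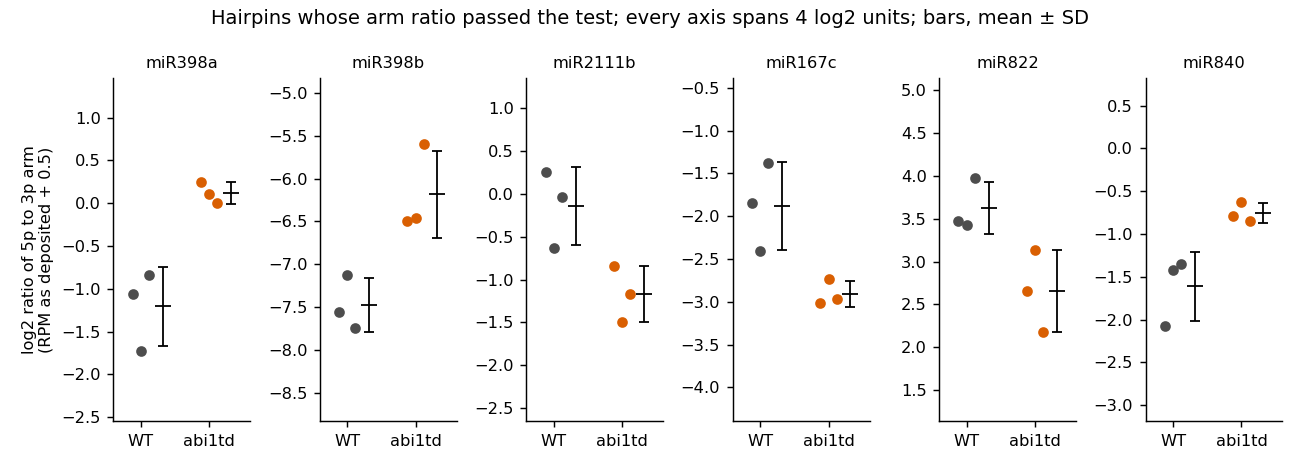
Log2 ratio of the 5p to the 3p arm (y axes, RPM as deposited + 0.5, each spanning 4 log2 units) in the WT-Mock (grey) and abi1td-Mock (orange) libraries, for the 6 hairpins called by limma, with 1 point per library and the mean ± SD as black bars. The groups are apart in all 6 panels, with the ratio higher in abi1td for miR398a, miR398b and miR840 and lower for miR2111b, miR167c and miR822.

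The most abundant miRNAs gave few calls. The 10 largest entries held 88.2% of the summed RPM in WT-Mock and 87.8% in abi1td-Mock, and of them only miR398b-3p and miR827 passed. miR166a-3p, which restricts HD-ZIP III transcription factors, was the largest, at 15963, 20234 and 26633 RPM in WT-Mock and 21588, 14058 and 12399 RPM in abi1td-Mock as deposited, with a log2 difference of -0.12 after rescaling (adjusted p 0.694). miR159a, which acts on GAMYB-like factors, differed by -0.23 without overlap (adjusted p 0.372), miR165a-3p by -0.20 (adjusted p 0.533) and miR159b-3p by -0.26 (adjusted p 0.317). miR167a-3p, the other arm of an auxin-related hairpin, was at 1157, 1576 and 1133 RPM in WT-Mock and 1682, 1567 and 2371 RPM in abi1td-Mock. Its log2 difference was 0.53 (adjusted p 0.0709), and it passed without WT-Mock replicate 2 (0.69, adjusted p 0.00938), without abi1td-Mock replicate 2 (0.64, adjusted p 0.0343) and with a minimum of 5 RPM. miR403-3p, which acts on AGO2, differed by 0.32 (adjusted p 0.211) and miR319a, which acts on TCP factors, by -0.28 (adjusted p 0.240).

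Lists of miRNA families that act on one kind of target, with both arms counted, mostly held no call. The miR156, miR157 and miR172 families time the change from juvenile to adult leaves. Among their 12 tested sequences 10 differences were above 0 and 2 below, with a median of 0.30. There were 0 calls, at 4.58% called higher over all miRNAs. The opposite arms ran from 0.18 (miR156a-3p) to 0.73 (miR172b-5p). The loaded arms lay nearer to 0, with miR156a-5p at -0.12, miR172a at 0.03 and miR157d at 0.06. The abundant miR157a-5p was close to 0 (-0.02, adjusted p 0.935), and its sign turned with trimmed-mean scaling, with all 24 libraries and in 3 fits without 1 library. All 5 tested miR159 and miR319 sequences were below 0, with a median of -0.26, and 4 of the 5 miR165 and miR166 sequences, with a median of -0.20, and none of them passed. Of all 131 miRNAs 63 were above 0 and 68 below. With RPM as deposited 36 were above 0 and 95 below, as were 6 and 6 of the phase change list (median 0.03), and the medians of the auxin list and of the tasiRNA triggers turned negative (-0.071 and -0.094).

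Of 11 sequences of auxin-related families 0 passed (median 0.20). Of 15 from other growth regulator families 0 passed (median -0.17, with miR396a-5p at -0.29, adjusted p 0.222). Of 6 from families that act on the silencing machinery, both arms counted, 0 passed (median -0.01). Of 4 from the miR169 family, which acts on NF-YA factors, 0 passed (median -0.27, with miR169h at -0.36, adjusted p 0.318). Of 3 that act on PPR genes 0 passed (median -0.17, with miR161.1 at -0.17, adjusted p 0.473). Of 6 tasiRNA triggers 1 passed (miR173-5p; median 0.16). These counts stand beside 7.63% called over all miRNAs and say nothing particular of such small lists.

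**Figure D4:**
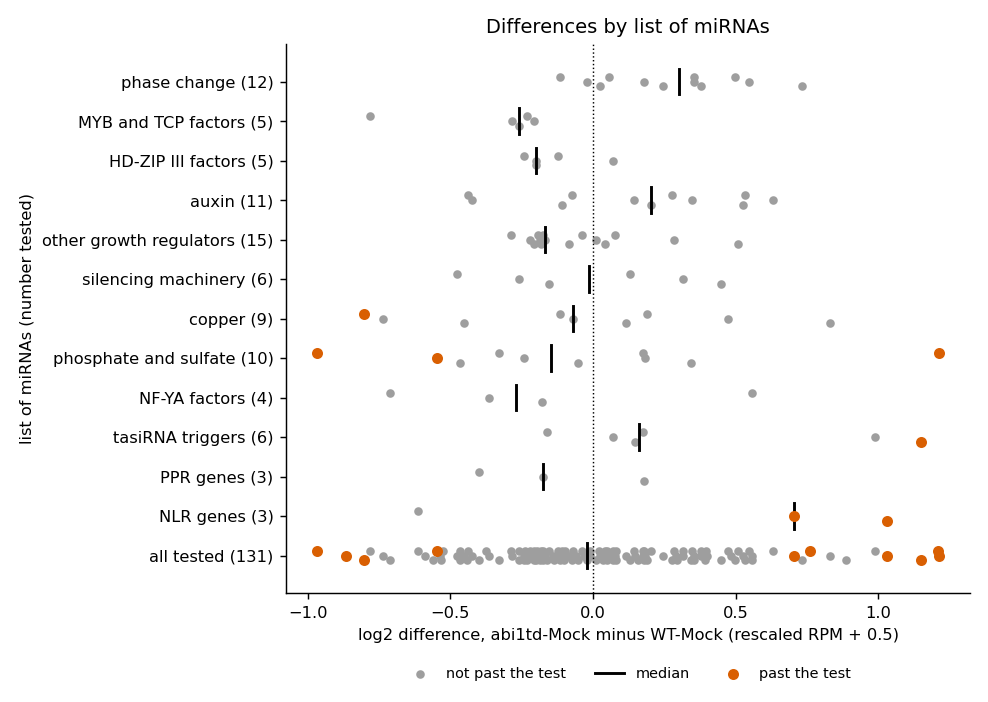
Log2 difference of abi1td-Mock from WT-Mock (x axis, rescaled RPM + 0.5) for the tested members of 12 lists and for all 131 miRNAs (y axis, number tested in parentheses). Each point is a miRNA, orange where it passed limma, and black lines are medians, which run from -0.27 for the NF-YA list to 0.70 for the NLR list, itself of 3 sequences, against -0.02 for all.

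To see whether the 10 differences set abi1td apart from the other mutant lines, abi1td-Mock was compared with mkkk17-Mock and mkkk18-Mock in a fit of the 12 mock libraries. Among these, mkkk17-Mock replicate 1 had the lowest summed RPM of all 24 libraries, 16515. No miRNA passed in either comparison (0 of 128, 0%), and 8 (6.25%) had an unadjusted p under 0.05 in each. In the form of fit used against WT-Mock, with only the 6 libraries compared, miR167c-5p (-1.15, adjusted p 0.00339) and miR167c-3p (-0.92, adjusted p 0.0179) were lower than in mkkk18-Mock, and without a filter on low values 3 rare miRNAs passed, so the count of 0 depends on the fit. miR398b-3p differed from mkkk17-Mock by 0.02 (95% interval -0.43 to 0.47) and from mkkk18-Mock by 0.15 (-0.31 to 0.60), intervals that leave room for a difference in either direction. miR2111b-3p differed by -0.32 (-0.86 to 0.22) and 0.43 (-0.11 to 0.97), and miR472-3p by -0.42 (-1.14 to 0.30) and 0.11 (-0.61 to 0.83). Without mkkk17-Mock replicate 1 the differences from mkkk17-Mock were 0.01, -0.15 and 0.10 in that order, so that of miR472-3p turned its sign. miR827 was lower in abi1td-Mock than in mkkk18-Mock by 0.57 before adjustment (log2 difference -0.57, 95% interval -1.002 to -0.15), but its adjusted p was 0.375. It passed without mkkk18-Mock replicate 3 (-0.82, adjusted p 0.0255), and with mkkk17-Mock replicate 3 left out miR846-5p passed against mkkk17-Mock (1.48, adjusted p 0.0423), a miRNA outside the 10 and named after its value was seen. None of the 10 is thus shown to be particular to abi1td.

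Levels of the 10 in the other groups stand beside these, on a scale common to the 24 libraries. The groups share the WT libraries as a reference, so their differences from WT are not independent of each other. miR398b-3p was at 1200 to 1554 RPM in WT-Mock, 563 to 960 RPM in abi1td-Mock, 646 to 883 RPM in mkkk17-Mock and 587 to 840 RPM in mkkk18-Mock. WT-Mock was thus the highest mock group without overlap, and the ranges of the 3 mutants overlapped. miR2111b-3p was at 5.03 to 8.95 RPM in WT-Mock, 14.4 to 21.6 RPM in abi1td-Mock, 18.04 to 28.6 RPM in mkkk17-Mock and 10.95 to 14.6 RPM in mkkk18-Mock, so WT-Mock was the lowest, and neighbouring mutants overlapped. miR827 was at 1044 to 1289 RPM in WT-Mock, 807 to 836 RPM in abi1td-Mock, 852 to 1038 RPM in mkkk17-Mock and 876 to 1430 RPM in mkkk18-Mock, where the order of the last group and WT-Mock is not clear from their ranges.

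Under ABA, WT Col-0 seedlings reached 41.6 to 44.8 RPM of miR2111b-3p and abi1td seedlings 38.9 to 55.8 RPM, so mock abi1td libraries (14.4 to 21.6 RPM) lay between mock and ABA-treated WT Col-0. So did mkkk17-Mock (18.04 to 28.6 RPM) and mkkk18-Mock (10.95 to 14.6 RPM). miR779.2 was at 8.59 to 14.2 RPM in WT-Mock, 5.73 to 7.08 RPM in abi1td-Mock and 0.41 to 1.33 RPM in WT-ABA. In mkkk17-Mock and mkkk18-Mock it was at 2.24 to 8.86 RPM and 3.59 to 5.67 RPM. miR472-3p was at 66.5 to 91.5 RPM in WT-Mock, 118 to 133 RPM in abi1td-Mock and 222 to 585 RPM in WT-ABA. In mkkk17-Mock and mkkk18-Mock it was at 107 to 365 RPM and 97.9 to 149 RPM. miR827 was at 1044 to 1289 RPM in WT-Mock, 807 to 836 RPM in abi1td-Mock and 715 to 798 RPM in WT-ABA. In mkkk17-Mock it was at 852 to 1038 RPM, and mkkk18-Mock (876 to 1430 RPM) overlapped WT-Mock. Under ABA, abi1td seedlings held 885 to 1131 RPM of miR827, above abi1td-Mock. In abi1td-Mock miR2111b-3p, miR779.2, miR472-3p and miR827 thus lay between the mock and ABA levels of WT Col-0. For each of these, mkkk17-Mock, mkkk18-Mock or both did so as well. Single libraries varied widely in miR472-3p and miR779.2. Without ABA, mkkk17-Mock replicate 1 held 365 and 2.24 RPM of them. Under ABA, abi1td replicates 1, 2 and 3 held 129, 502 and 132 RPM of miR472-3p and 2.66, 0.15 and 4.74 RPM of miR779.2. Whether the WT-ABA levels reflect ABA alone was not tested. miR398b-3p lay outside the WT Col-0 levels, since WT-ABA held 1433 to 1809 RPM. miR472-5p lay outside too, at 3.90 to 5.597 RPM in abi1td-Mock against 1.32 to 2.78 RPM in WT-Mock and 1.14 to 1.82 RPM in WT-ABA, and so did miR5654-5p, at 2.39 to 2.73 RPM against 0.44 to 1.58 RPM and 0.36 to 1.796 RPM. miR158b lay outside as well, at 10.01 to 17.97 RPM in abi1td-Mock against 7.11 to 9.47 RPM in WT-Mock and 4.67 to 7.38 RPM in WT-ABA. For miR395b abi1td-Mock (3.50 to 5.22 RPM) overlapped WT-ABA (3.26 to 5.69 RPM), and WT-Mock held 5.71 to 15.5 RPM. For miR173-5p abi1td-Mock (47.9 to 72.4 RPM) overlapped WT-ABA (29.1 to 70.7 RPM), and WT-Mock held 16.6 to 46.5 RPM. These are descriptions and were not tested.

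**Figure D5:**
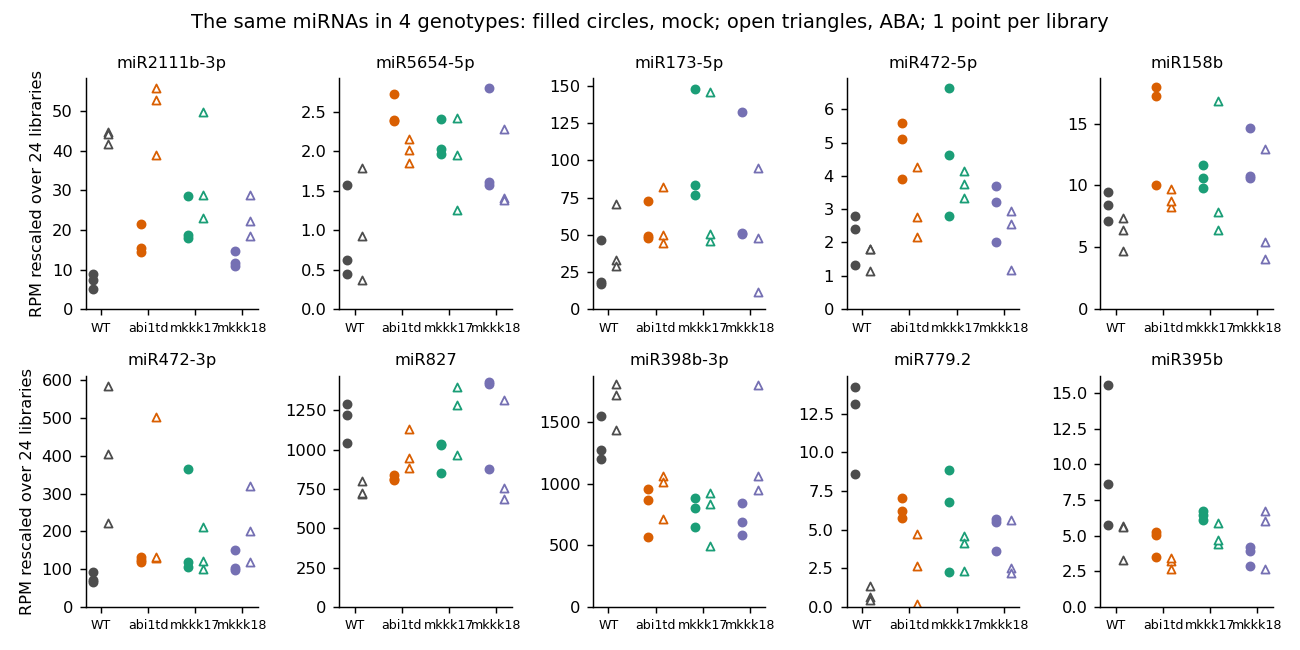
Levels (y axes, RPM rescaled over the 24 libraries, from 0) of the 10 called miRNAs in WT, abi1td, mkkk17 and mkkk18 seedlings (x axes), with filled circles for mock and open triangles for ABA, 1 point per library. For miR398b-3p the mock libraries of all 3 mutants lie at 960 RPM or less and those of WT at 1200 RPM or more.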

How the data were processed

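Small RNA of whole 2-week-old seedlings was sequenced by the authors, who clipped adapters, filtered reads by quality and assigned them to miRNAs with mirPRo. The authors deposited RPM with 1 decimal in 1 table per library, without pooling replicates. The total behind the RPM is not given in the sources used here, and counts could not be recovered, so the DESeq2 test that the authors ran on counts was not repeated.

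RPM of the 6 libraries were rescaled by the median of ratios, and log2(rescaled RPM + 0.5) went into limma 3.58.1 (R 4.3.3, empirical Bayes, variance trend) with Benjamini-Hochberg adjustment over all sequences with a mean of at least 1 RPM. A fold change on this scale understates that of rare miRNAs. Calls have an adjusted p under 0.05. Intervals are 95%. Family sums, log2((5p + 0.5)/(3p + 0.5)) of RPM as deposited, and comparisons with mkkk17-Mock and mkkk18-Mock (12 mock libraries) used the same test. Single values per library were compared with two-sided exact permutation tests in SciPy 1.17.1. Python 3.11.15, NumPy 2.4.6, pandas 2.3.3 and matplotlib 3.10.9 made the tables and plots. The procedure was also run on simulated data with independent normal noise and without counting error, which does not show how it fares on these libraries. Positions are exact matches of the mature sequences to TAIR10.1, since the deposited tables hold no coordinates and the study names TAIR without a build.

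Named miRNAs are the called ones, the 10 largest entries, the most abundant tested member of each list and the other arm of each called hairpin, and any others were chosen after their values were seen. The comparison and the lists (by family number) were chosen with earlier results of these data known. Alternatives were RPM as deposited, trimmed-mean scaling, pseudocounts of 0.1 and 1, a minimum mean of 5 RPM or none, replicate numbers as a block, a correction for GC content, with and without the block, robust or untrended variance, 12 or 24 libraries, and each library left out. Replicates were independent biological ones, and the labels do not say that equal numbers were grown together.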

Additional observations from a re-analysis of the deposited data

How the results depend on the processing

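The total behind the RPM is unknown, so counting error could not be modelled, and values under about 0.33 RPM are the least certain. The count of called miRNAs went from 10 to 0 with RPM as deposited, 0 without a variance trend, 5 without a filter on low values, 1 with 12 mock libraries, 1 with all 24 libraries (miR2111b-3p in both), and 5 to 18 with single libraries left out (13 without abi1td-Mock replicate 2, of which 7 were among the 10). Called families went from 8 to 1, 0, 2, 0 and 0 under the same settings in that order, and to 3 to 11 with single libraries left out. Called arm ratios went from 6 to 1 with a pseudocount of 0.1, 2 without a filter, 3 with a mean of at least 5 RPM, 3 with the GC correction, 2 without a variance trend, 2 with 12 and 0 with 24 libraries, and 1 to 11 with single libraries left out. Equal replicate numbers did not pair the libraries (correlations of deviations 0.01, -0.08 and -0.22). With the replicate block, 0 miRNAs (21 at an unadjusted p under 0.05), 0 families and 4 arm ratios were called, and 0 miRNAs with the GC correction and the block. Against mkkk18-Mock, 3 miRNAs were called without a filter, 2 with 6 libraries, and 0 to 1 with single libraries left out, as against mkkk17-Mock. The difference in summed RPM ran from -20860 to -6446 with single libraries left out. That in sequences above 0 was -1.33 and ran from -4.5 to 2.67, being 1 without WT-Mock replicate 2 and 2.67 without abi1td-Mock replicate 3. Signs turned for miRNAs near 0. miR158a-3p was -0.19 with RPM as deposited and ran from -0.013 to 0.24 with single libraries left out, below 0 without WT-Mock replicate 1 and without abi1td-Mock replicate 2. miR157a-5p was 0.00048 with trimmed-mean scaling, 0.0011 with 24 libraries, and from -0.14 to 0.071 with single libraries left out, above 0 without WT-Mock replicate 3, abi1td-Mock replicate 2 or abi1td-Mock replicate 3. miR390a-5p was -0.20 with RPM as deposited and -0.00044 (without abi1td-Mock replicate 1) to 0.19 with single libraries left out, and miR2111a-5p was -0.074 and -0.0078 (without WT-Mock replicate 3) to 0.42. The cause was not tested.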
